A study of Mus musculus with 4 samples.

Results

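The imprinted Igf2r-Airn domain on mouse chromosome 17 was examined through its 4 genes Igf2r, Airn, Slc22a2 and Slc22a3, chosen by name from the 55450 genes of the GENCODE M21 annotation of GRCm38. Start regions of transcription had been mapped by PRO-seq, which sequences nascent RNA extended by engaged RNA polymerases in a nuclear run-on, in liver and yolk sac of E14.5 mouse embryos. There were 2 libraries per tissue, and each came from tissue of 6 embryos combined before chromatin was isolated. All embryos had C57BL/6J mothers and fathers of a mixed C57BL/6J and CAST/EiJ background, which were chosen to carry only CAST/EiJ variants on chromosome 12 at Dlk1/Gtl2. The alleles the fathers carried on chromosome 17 are not given in the sources used here. The lists hold no allele-resolved values, so a peak from the maternal copy and a peak from the paternal copy cannot be told apart. The values are dREG peaks, intervals that a classifier marked as transcription start regions, which include promoters and distal elements, and they carry no strand.

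Igf2r encodes the cation-independent mannose 6-phosphate receptor, which sorts lysosomal enzymes and removes the growth factor IGF2 from the cell surface, and in most mouse tissues it is expressed from the maternal copy. Airn is a long, mostly unspliced noncoding RNA transcribed from the paternal copy in the antisense direction to Igf2r, from a start site inside an Igf2r intron, and its transcription silences the paternal Igf2r promoter. Slc22a2 and Slc22a3 encode organic cation transporters of the cell membrane, and in extraembryonic tissues they are also silenced on the copy that transcribes Airn.

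Igf2r lay on the minus strand at 12682406 to 12769664 (ENSMUSG00000023830.14) and Airn on the plus strand at 12741311 to 12860136 (ENSMUSG00000078247.4). Slc22a2 lay on the plus strand at 12584132 to 12628488 (ENSMUSG00000040966.10) and Slc22a3 on the minus strand at 12418960 to 12507704 (ENSMUSG00000023828.3). The Airn start site lay in intron 2 of the 48-exon Igf2r transcript, counted from the Igf2r 5′ end, and 28.4 kb of Airn overlapped Igf2r. The domain was taken as the span of the 4 genes with 100 kb on either side, from 12318960 to 12960136.

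The promoters are shown because the peaks covered them to different extents, most clearly by tissue at Slc22a3. All 4 genes matched the RefSeq promoter table of GRCm38.p6, and the 250 bases before the RefSeq start are printed 5′ to 3′ along the gene. Capitals mark matches on either strand to GGGCGG (a GC box), CACGTG and CAGGTG (both E-boxes), TATAAA and CCAAT. None of the matches overlapped another motif.
Igf2r: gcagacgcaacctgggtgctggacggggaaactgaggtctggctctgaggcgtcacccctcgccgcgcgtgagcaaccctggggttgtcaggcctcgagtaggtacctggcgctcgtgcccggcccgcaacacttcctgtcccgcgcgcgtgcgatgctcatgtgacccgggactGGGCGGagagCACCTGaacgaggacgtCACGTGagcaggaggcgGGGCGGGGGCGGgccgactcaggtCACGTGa
Airn: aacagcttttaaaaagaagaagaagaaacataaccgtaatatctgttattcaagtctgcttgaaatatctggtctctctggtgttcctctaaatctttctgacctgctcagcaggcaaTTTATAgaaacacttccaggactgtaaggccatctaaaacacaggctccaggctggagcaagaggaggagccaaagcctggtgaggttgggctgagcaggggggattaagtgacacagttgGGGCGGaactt
Slc22a2: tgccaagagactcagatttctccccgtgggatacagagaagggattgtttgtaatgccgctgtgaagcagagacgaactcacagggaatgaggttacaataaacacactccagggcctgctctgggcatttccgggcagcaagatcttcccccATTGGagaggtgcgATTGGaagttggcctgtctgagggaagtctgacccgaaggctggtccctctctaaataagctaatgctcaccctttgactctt
Slc22a3: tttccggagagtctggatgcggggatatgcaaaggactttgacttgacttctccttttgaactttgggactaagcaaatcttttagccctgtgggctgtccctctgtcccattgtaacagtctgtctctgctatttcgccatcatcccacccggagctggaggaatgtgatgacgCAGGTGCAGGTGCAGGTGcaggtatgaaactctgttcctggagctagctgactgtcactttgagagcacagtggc
The Igf2r sequence (chr17:12769707-12769956, minus strand) held 27 CG dinucleotides, more than 91.4% of 32851 promoter windows of the same length, whose median was 6. It had 3 GC boxes, 2 CACGTG matches and 1 CAGGTG match. The Airn sequence (chr17:12741061-12741310, plus strand) held 2 CG dinucleotides, 1 GC box close to the start and 1 TATAAA match on the opposite strand. The Slc22a2 sequence (chr17:12583939-12584188, plus strand) held 6 CG dinucleotides and 2 CCAAT matches on the opposite strand, and the Slc22a3 sequence (chr17:12507705-12507954, minus strand) held 5 CG dinucleotides and 3 adjoining CAGGTG matches. Of all promoter windows, 32.7% held GGGCGG, 6.02% CACGTG, 17.2% CAGGTG, 12.4% TATAAA and 33.8% CCAAT. These matches describe letters only. The Igf2r and Airn sequences lay wholly inside a peak in all 4 libraries. The Slc22a3 sequence lay inside the yolk sac peaks (99.2% and 100% of its bases in replicates 1 and 2) and outside the liver peaks (0% and 0%). The Slc22a2 sequence lay inside a peak in yolk sac replicate 1 only.

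The liver lists held 24863 and 24333 peaks, those of yolk sac 50525 and 43055, and the number of reads behind them is unknown. Erythroid markers had promoter peaks at 6 of 6 genes in each liver library and at 2 of 6 in each yolk sac library, with Gata1, Klf1, Alas2 and Slc4a1 called in both liver lists and neither yolk sac list. Visceral endoderm markers had them at 4 and 3 of 6 genes in liver and 6 and 6 in yolk sac, and Amn and Cubn were called in both yolk sac lists and neither liver list. Mesenchymal and mesothelial markers were called at 1 and 3 of 6 genes in liver and 6 and 6 in yolk sac, and hepatocyte markers at 5 and 4 of 6 against 6 and 6. The mesenchymal and mesothelial markers Wt1, Hand1 and Upk3b, and the hepatocyte marker Fgb, were called in both yolk sac lists and neither liver list. The hepatocyte marker Afp was missing in liver replicate 2. The 4 endothelial markers were called in all 4 libraries. Of 9 trophoblast and placental markers, 7, among them Prl3d1, Prl2c2, Prl3b1, Tpbpa and Gcm1, were called in no library, Ascl2 was called in all 4, and Gata3 in all but liver replicate 1. Of 3 decidual markers, Prl8a2 and Prl were called in no library, and Hand2 was called in all but liver replicate 1. The tissues are mixtures of cell types, and fewer cells of a type and less RNA per cell cannot be told apart. The part of cell composition in the results below was not tested.

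The liver libraries had 12 and 13 peaks in the domain, and the yolk sac libraries 32 and 26. Both yolk sac lists had more peaks than either liver list, the means being 12.5 ± 0.707 for liver and 29 ± 4.24 for yolk sac (SD, n = 2). At 16.5 peaks, the difference was larger than the replicate spread (exact two-sided permutation p = 0.333, the smallest that 2 libraries against 2 allow). Over 2472 tiles of the same length with at least 10 peaks, 82.8% had more peaks in both yolk sac lists and 3.44% in both liver lists, and the median ratio of yolk sac to liver was 1.88, against 2.27 here, both with 0.5 added to each mean. The excess of the domain as a whole was thus near the background. It also turned with list length. When every list was shortened to its top 24333 peaks by score, 12 and 13 domain peaks were left for liver and 12 and 9 for yolk sac, a difference of -2 (exact permutation p = 0.667). This cut took peaks almost only from the longer yolk sac lists.

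**Figure D1:**
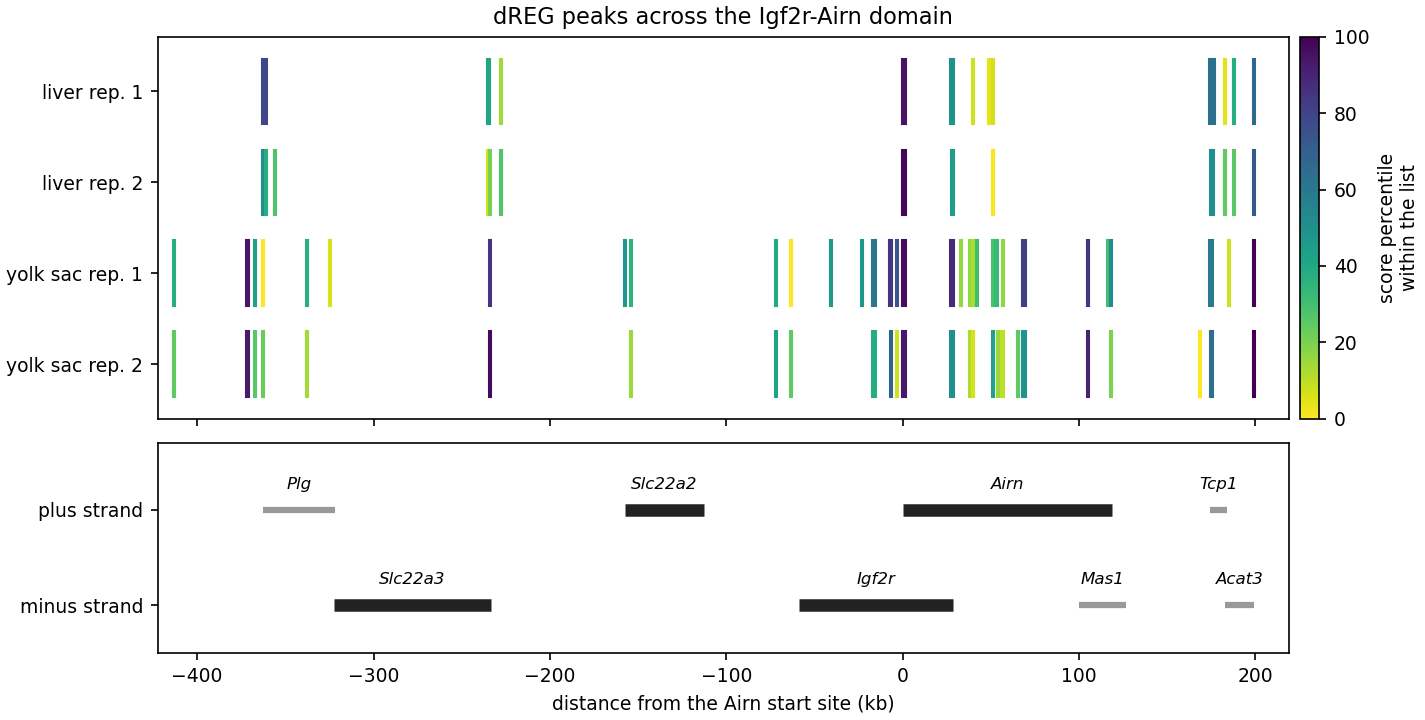
Peaks of the 4 libraries by distance from the Airn start site (kb, upper panel; peaks under 1.2 kb are drawn 1.2 kb wide), coloured by score percentile within the list, and the 4 genes (black) with Plg, Mas1, Tcp1 and Acat3 (grey) by strand (lower panel). The Airn start at 0 was marked in all 4 libraries at or above the 94.1 percentile, and the body of Igf2r to its left was free of peaks in both liver libraries.

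Merging peaks that overlapped by at least 1 bp gave 39 regions in the domain. Of these, 7 were called in all 4 libraries (25.7% of all 61095 merged regions of the genome were), 16 in both yolk sac and neither liver library (33.0%), 3 in both liver and neither yolk sac library (6.62%), 12 in a single library and 1 in another combination. Of the 9 regions within 500 bp of an annotated start, 6 had a peak in every library and 0 were yolk-sac-only or liver-only, where over all such regions 64.7% had a peak in every library, 16.0% were yolk-sac-only and 3.40% liver-only. Among the 30 regions away from starts, 16 were yolk-sac-only, where 40.3% of all such regions were, 3 were liver-only, where 8.01% were, and 1 was called in all 4 libraries, where 8.92% were. These counts depended on the lists: with every list at its top 24333 peaks, 4 regions were yolk-sac-only and 5 liver-only. The loss in that setting fell almost wholly on the yolk sac lists. Without yolk sac replicate 2, 25 regions were yolk-sac-only, and without liver replicate 1, 6 were liver-only. In these leave-out counts a peak in the single library left of that tissue sufficed, so the rise is partly by construction.

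The Igf2r start site lay inside a peak in all 4 libraries, and Airn and Slc22a3 also had a promoter peak in all 4, a pattern found at 53.8% of protein-coding and 16.8% of long noncoding genes. The Igf2r promoter peak measured 1902 and 1702 bp in liver, and 2702 and 1952 bp in yolk sac. The yolk sac peaks were the wider ones, but yolk sac replicate 2 exceeded liver replicate 1 by a small margin. The means were 1802 ± 141 bp and 2327 ± 530 bp (SD, n = 2; exact permutation p = 0.333, the smallest possible), and without yolk sac replicate 1 the difference fell from 525 to 150 bp. The promoter peak was wider in both yolk sac lists at 34.5%, and in both liver lists at 20.9%, of the protein-coding genes called in all 4. By score, the Igf2r peak stood at percentile 49.4 and 44.6 for liver, and at 88.3 and 50.7 for yolk sac. Yolk sac replicate 1 stood apart in rank and in width. Ranks are given per list and show no change between lists of different lengths. The median promoter peak ranked between the 63.3 and 68.2 percentiles of its list, so the Igf2r peak was below that median in 3 of the 4 libraries.

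**Figure D2:**
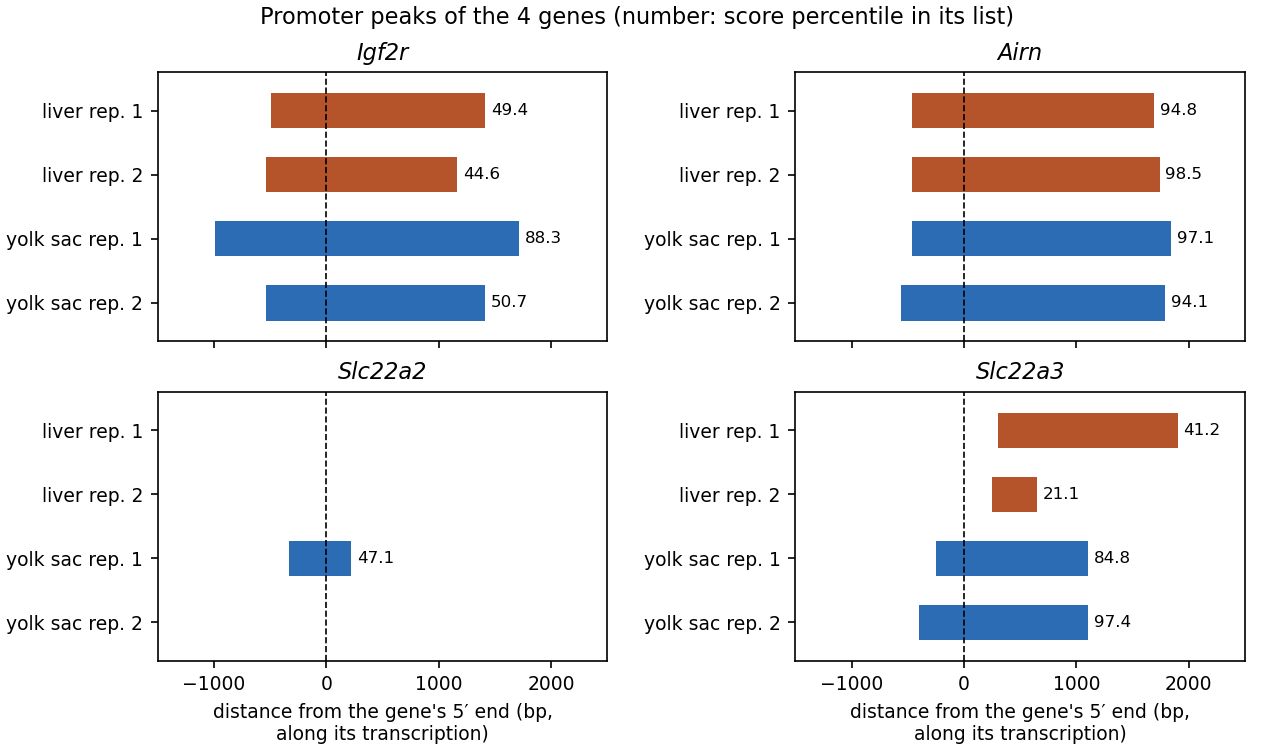
Extent of the promoter peak of each gene in each library (bars, bp from the gene's 5′ end along its transcription, dashed line at the 5′ end), with its score percentile within the list as a number. The Slc22a3 peaks of liver begin past the 5′ end, while those of yolk sac span it, and Slc22a2 has a peak in yolk sac replicate 1 only.

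Within the body of Igf2r, away from any annotated start of any gene, the liver libraries had 0 and 0 peaks and the yolk sac libraries 4 and 3. The tissues did not overlap (exact permutation p = 0.333, the smallest possible), a pattern found in this direction at 35.8%, and in the opposite direction at 5.37%, of 7115 protein-coding, antisense and lincRNA genes of at least 40 kb. Of the 4 Igf2r body regions away from starts, 3 were yolk-sac-only, where 40.3% of all regions away from starts were. The nearest to the Airn start, in intron 4 at 12737601 to 12738502, was 902 bp wide in yolk sac replicate 1 and 152 bp in replicate 2, with score percentiles of 74.6 and 7.75. The next, in intron 5 at 12734001 to 12734802, was 802 and 602 bp wide, at percentiles of 84.7 and 68.3. The widest, in intron 10 at 12723851 to 12726202, was 2202 and 2102 bp wide, at percentiles of 60.5 and 38.4. These regions ended 2809, 6509 and 15109 bp upstream of the Airn start, taken along Airn. Yolk sac replicate 1 alone had a further peak of 752 bp in intron 13, and a peak of 502 bp in intron 30, 327 bp from an internal annotated start of Igf2r. Of the 3 regions, the intron 5 region was kept by both yolk sac replicates when each list was held to its top 24333 peaks, and the other two by replicate 1 only.

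The Airn promoter had the highest-ranking peak of the 4 genes in 3 of the 4 libraries. It measured 2152 and 2202 bp in liver, and 2302 and 2352 bp in yolk sac, so the peak was of nearly the same extent in all 4 libraries. The means were 2177 ± 35.4 bp and 2327 ± 35.4 bp (SD, n = 2), a difference of 150 bp with no overlap between tissues (exact permutation p = 0.333, the smallest possible). Of protein-coding genes called in all 4 libraries, 34.5% also had the wider peak in both yolk sac lists. It reached 460 bp upstream of the Airn start in 3 libraries and 560 bp in yolk sac replicate 2, and between 1691 and 1841 bp into Airn. By score it stood at percentile 94.8 and 98.5 for liver, and at 97.1 and 94.1 for yolk sac. In yolk sac replicate 2 the Slc22a3 peak ranked higher, at 97.4. In every library the Airn peak ranked above the Igf2r peak. It remained in all 4 libraries under the higher-scoring 50% of each list, a filter under which the Igf2r and Slc22a3 promoter peaks were kept for yolk sac (both replicates) but lost for liver (both replicates). That split turned on where the list was divided, since at the top 24333 peaks both promoters were kept in all 4 libraries, and at Igf2r liver replicate 1 and yolk sac replicate 2 stood at percentile 49.4 and 50.7.

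Beyond its promoter, the body of Airn held 3 and 1 liver peaks, against 11 and 9 yolk sac peaks. The means were 2 ± 1.41 and 10 ± 1.41 (SD, n = 2), so the gap between tissues was wider than that between replicates of a tissue (exact permutation p = 0.333, again the smallest possible). Per 100 kb of gene, these numbers were 2.52 and 0.842 in liver and 9.26 and 7.57 in yolk sac, above 92.8%, 76.7%, 97.2% and 96.6% of the genes of at least 40 kb. Of those genes, 35.8% had more body peaks in both yolk sac lists and 5.37% in both liver lists. All of the Airn body peaks lay past the Igf2r 5′ end, in the part of Airn that does not overlap Igf2r. The 4 liver peaks were 102 to 202 bp wide and ranked at or below the 7.61 percentile of their lists.

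Of the 13 regions in the Airn body, 6 were yolk-sac-only (40.3% of all regions away from starts) and 1 was called in all 4 libraries (8.92%), at 12792301 to 12792902. Both counts were near the background. The region called in all 4 libraries lay 641 bp from the start of CT030636.1, a lincRNA gene. There the peaks were 202 and 102 bp wide in liver and 452 and 602 bp in yolk sac. The yolk-sac-only region with the highest ranks lay at 12845651 to 12847152, 1502 bp wide in both yolk sac libraries, at percentiles of 84.5 and 90.4. It lay in the part of Airn that also overlaps Mas1, which encodes a G protein-coupled receptor on the minus strand, and 968 bp from the nearest Mas1 start. The widest lay at 12808851 to 12810952, with 2102 and 2052 bp and percentiles of 81.1 and 48.6. A region at 12858901 to 12859752, near the Airn 3′ end and also within Mas1, was 852 and 602 bp wide, at percentiles of 52.7 and 19.6. The other 3 yolk-sac-only regions, at 12779251 to 12779702, 12793901 to 12795602 and 12797751 to 12798252, ranked at or below the 32.8 percentile. With each list at its top 24333 peaks the Airn body held 3 and 1 liver peaks and 3 and 2 yolk sac peaks (exact permutation p = 1), so the excess in number was not present at equal list length. The regions starting at 12808851 and 12845651 were still yolk-sac-only, while the region called in all 4 libraries was then called in liver alone. That cut fell almost wholly on the longer yolk sac lists. At this last region it dropped yolk sac peaks at percentiles of 28.9 and 42.4 and kept liver peaks at 6.34 and 1.09.

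**Figure D3:**
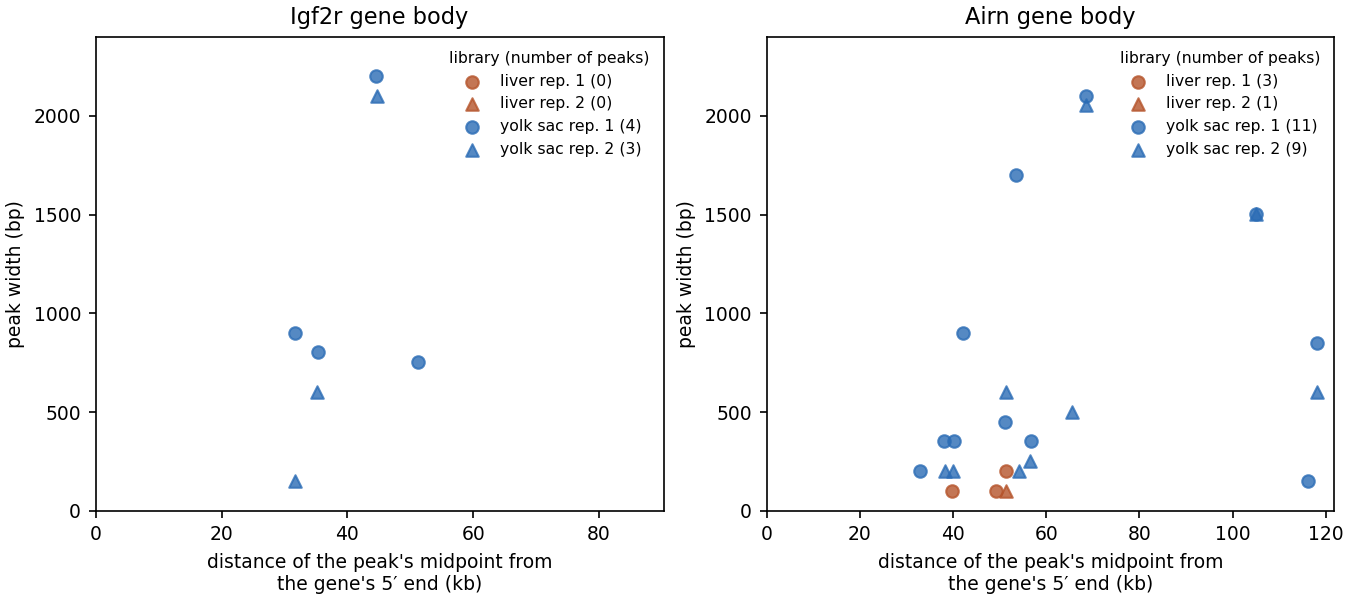
Width (bp) of each peak away from annotated starts against the distance of its midpoint from the 5′ end of Igf2r (left) or Airn (right), in kb; colours are tissues, circles replicate 1 and triangles replicate 2, with the number of peaks in the legend. Liver has no such peak in Igf2r, and its 4 in Airn are 102 to 202 bp wide.

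Slc22a3, the extraneuronal monoamine transporter gene, had a promoter peak in all 4 libraries, but at different positions. The upstream edges of the liver peaks lay inside the gene, 302 and 252 bp from its 5′ end, at 12507402 and 12507452, while the yolk sac peaks extended past the 5′ end to 12507952 and 12508102. The start nearest to the liver peaks was the second annotated one, at 12507416, which lay 14 bp outside the peak of replicate 1 and inside that of replicate 2. The widths were 1602 and 402 bp for liver, and 1352 and 1502 bp for yolk sac. They overlapped between tissues (exact permutation p = 1), and the sign of the difference turned without liver replicate 2, from 425 to -175 bp. Liver replicate 2 had a second peak of 452 bp farther into the gene, at 12505751 to 12506202, where replicate 1 had a single peak over the whole stretch. By score the Slc22a3 peaks stood at percentile 41.2 and 21.1 for liver, and at 84.8 and 97.4 for yolk sac. Away from starts, the body of Slc22a3 held no peak other than this second peak of liver replicate 2, in a gene of 88.7 kb. A liver-only region lay 5697 bp upstream of Slc22a3, at 12513401 to 12513952, where both liver peaks were 502 bp wide, at percentiles of 14.1 and 27.1.

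Slc22a2, a second organic cation transporter gene, was the member with the fewest peaks. Its start lay in a peak of 552 bp in yolk sac replicate 1, at the 47.1 percentile, and no other library had a peak within 500 bp of its starts. A call in that library alone was found at 1.33% of protein-coding genes. The Slc22a2 call did not pass the filter to 24333 peaks per list. Both yolk sac libraries had a peak in intron 2, at 12586551 to 12587702. These peaks were 1152 and 652 bp wide, at percentiles of 35.2 and 14.9, and the liver libraries had none (exact permutation p = 0.333, the smallest possible). Of genes of at least 40 kb, with or without body peaks, 35.8% had more body peaks in both yolk sac lists. The intron 2 region was also absent at equal list length.

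**Figure D4:**
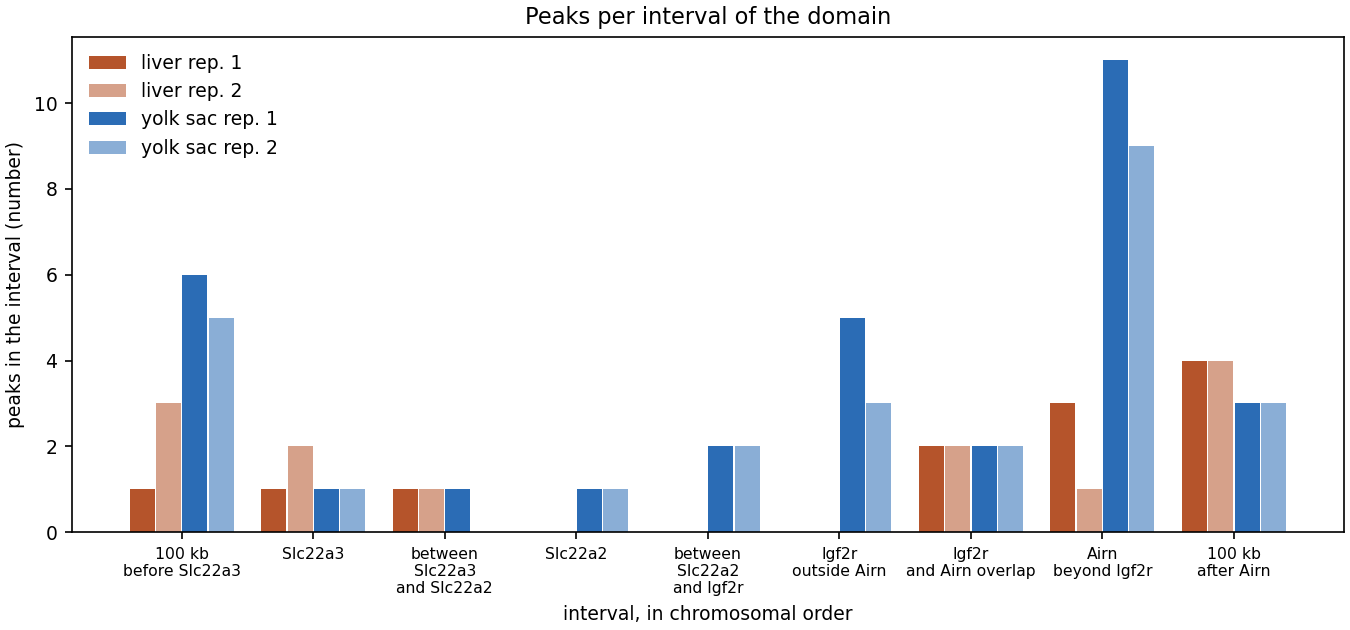
Number of peaks per library in the 9 consecutive intervals of the domain; dark bars are replicate 1 and light bars replicate 2. Yolk sac bars are higher than liver bars in Igf2r outside Airn (5 and 3 against 0 and 0) and in Airn beyond Igf2r (11 and 9 against 3 and 1). They are also higher in the 100 kb before Slc22a3 (6 and 5 against 1 and 3), in Slc22a2 (1 and 1 against 0 and 0) and between Slc22a2 and Igf2r (2 and 2 against 0 and 0). Liver bars are higher in the 100 kb after Airn (4 and 4 against 3 and 3). How often other stretches of these lengths show such differences was not tested.

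Along the domain, Igf2r outside Airn held 5 and 3 yolk sac peaks and no liver peak. Both yolk sac lists also had more peaks than either liver list in Slc22a2, between Slc22a2 and Igf2r, and in the 100 kb before Slc22a3. How often other stretches of these lengths differ in this way was not tested. Of tiles of the length of the whole domain, 82.8% had more peaks in both yolk sac lists. In the stretch where Igf2r and Airn overlap, each library had 2 peaks, at the Airn and Igf2r promoters. The 100 kb after Airn held 4 and 4 liver peaks and 3 and 3 yolk sac peaks, a difference of 1 peak whose frequency in other stretches was not tested. The other two liver-only regions of the domain lay there, at 12923301 to 12924502 and at 12929001 to 12929552, both with their midpoint within Acat3, the first also within Tcp1.

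Of the 22 other annotated genes overlapping the domain, 7 had a promoter peak in all 4 libraries, 14 in none, and Pnldc1 in yolk sac replicate 2 only. Of the 9 protein-coding ones, 5 were called in all 4 libraries (against 53.8%) and 3 in none (against 34.2%). The 7 calls are not separate peaks of the domain. The 5′ ends of 4732491K20Rik and Acat2 lay outside it, Gm23833 was called through the Igf2r promoter peak, and Mrpl18 and Tcp1 shared a peak. In a list of 20 neighbours along chromosome 17, 15 were called in all 4 libraries (53.8% of protein-coding genes were), among them Plg, Tcp1, Acat2 and Sod2. No neighbour was called in both libraries of a tissue and neither of the other, where 5.25% of protein-coding genes were yolk-sac-only and 1.01% liver-only. Mas1 was called in no library, as were 34.2% of protein-coding genes. Of 18 genes of IGF2R ligands, related receptors and lysosomal sorting, 16 were called in all 4 libraries (again against 53.8%), including the ligand gene Igf2, the signalling receptors Igf1r and Insr, the second mannose 6-phosphate receptor M6pr and Gnptab, whose product makes the mannose 6-phosphate tag. Igf1 was not called in liver replicate 1, nor Plaur in liver replicate 2. Of 12 related transporters, 5 were called in all 4 libraries (against 53.8%) and 5 in none (against 34.2%), and Slc22a6, an organic anion transporter gene, was yolk-sac-only. Of 8 genes listed with imprinted noncoding RNAs, a list that also holds the X-linked Jpx and the protein-coding Mcts2, 7 were called in all 4 libraries, as Airn was, and Snhg14 in none, where 16.8% of long noncoding genes were called in all 4.

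Genes with the most similar promoter ranks were sought among protein-coding genes called in the same libraries, by the mean absolute difference in score percentile. For Igf2r over 4 libraries these were Slfn2, Gm28285 and Eng, with differences of 1.38, 2.82 and 2.94 percentile points. For Airn they were Pxn, Cradd and Sp100, with 0.480, 0.700 and 0.724. For Slc22a3 they were Ak8 and Spaca9, with the same value of 3.71 in each, and Ugt1a7c with 3.84. Ak8 and Spaca9 had identical percentiles in all 4 libraries, so they may rest on the same peaks. For Slc22a2, over the single library that called it, they were Stum, Gm10842 and Has3, with 0.0416, 0.388 and 0.736.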

How the data were processed

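PRO-seq peak lists, 1 per library, were analysed for 2 liver and 2 yolk sac libraries. The authors deposited each peak with a score that has no stated unit and was at least 0.80 in each list; its scaling is not given in the sources used here. The submitters' processing notes name Bowtie2, bedtools and the build mm10, and the deposited lists are named for dREG, with no version given. Starts were converted to 1-based positions. Between 33.5% and 55.8% of peaks lay within 500 bp of a GENCODE M21 start, and between 11.1% and 14.6% after a shift of 5 kb.

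With Python 3.11.15, numpy 2.4.6 and pandas 2.3.3, a promoter call was a peak within 500 bp of any annotated start of the gene, and widths are of peaks within 500 bp of its 5′ end. Gene body peaks had their midpoint in the gene and lay over 500 bp from every start. Scores were ranked within a list only. Groups were compared by exact permutation over the 6 assignments of libraries. The region and promoter functions were tested on simulated lists. Each permutation p-value is the share of the 6 assignments with a difference of means at least as large as the observed one. Labels do not say whether libraries of a tissue came from separate litters, so p-values concern only these libraries. The members, gene lists and naming rule (all members, tissue-only list genes and the 3 most alike genes) were chosen with earlier results of these data known. Alternatives were score filters, list length, windows, flanks, merging, each library left out and a replicate block. Results at 1 further gene are not reported here.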

Additional observations from a re-analysis of the deposited data

How the results depend on the processing

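Of 15 results under 125 alternative values, 95 kept their sign and stayed within the spread between replicates (within 1.5 times for counts), 28 moved further and 2 changed sign. The replicate block values are among the 95 and could not differ from the main values. The promoter call of Airn was the same under the alternatives run, and its difference in width moved by less than the replicate spread. With the higher-scoring 50% of each list, the difference in domain peaks was 6, yolk-sac-only and liver-only regions numbered 5 and 1, promoter calls of the members fell from 13 to 8 of 16, and the differences in body peaks were 2 in Igf2r, 2 in Airn, 0 in Slc22a2 and 0 in Slc22a3. With each list at its top 24333 peaks by score these were -2 domain peaks, 4 and 5 regions, and 2, 0.5 and 0 body peaks in Igf2r, Airn and Slc22a2. The filters leave fewer peaks by construction, and the cut to 24333 peaks falls almost wholly on the yolk sac lists. A flank of 200 kb gave a difference of 23 domain peaks, a flank of 50 kb left 1 liver-only region, and a window of 250 bp gave 4 body peaks in Igf2r. With a window of 1000 bp the Airn body means were 1 peak for liver and 8 for yolk sac. Leaving out each library in turn gave 16 to 25 yolk-sac-only regions (25 without yolk sac replicate 2) and 3 to 6 liver-only regions (6 without liver replicate 1). A tissue with a library left out needed a peak in its remaining library only, so higher counts follow partly by construction. The differences were then 3 to 4 body peaks in Igf2r, -1 to 0 in Slc22a3, and -175 to 1025 bp in the Slc22a3 width (reversed without liver replicate 2; the cause was not tested). With the 50% filter the widths at Igf2r and Slc22a3 had no liver value, and the Slc22a2 width was never compared.

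Replicate numbers did not pair the libraries by the labels. The deviations of same-numbered libraries correlated at -0.019 over 2472 tiles. A replicate block leaves every difference the same by construction. For the 16.5 domain peaks it gave an exact sign-flip p = 0.5, the smallest 2 pairs allow. The depth of the libraries is unknown, so a peak missing from a list may lie under its detection limit.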

Other observations

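Among the places in the flanks whose peak extent differed between tissues, 3 are described. At Plg, which encodes plasminogen, a liver plasma protein, the promoter region was covered by 2952 and 1904 bp of peaks in the liver libraries and by 102 and 352 bp in the yolk sac libraries, where the peaks ranked at the 0.629 and 23.2 percentiles of their lists. Both yolk sac peaks at Plg were absent at equal list length. At 7806 bp upstream of Plg, a yolk-sac-only region at 12369251 to 12370802 held peaks of 1502 and 1552 bp at the 94.3 and 92.7 percentiles, and it was still called in both yolk sac libraries at equal list length. At the Acat3 start the peaks were 752 and 952 bp wide in liver and 1152 and 1152 bp in yolk sac, at percentile 66.3 and 72.01 by score for liver, and 99.5 and 99.7 for yolk sac. Among protein-coding genes called in all 4 libraries, the promoter peak was wider in both yolk sac lists at 34.5% and in both liver lists at 20.9%. The 3 places were chosen after their values were seen, and no difference was tested.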
